A study of Mus musculus with 28 samples.

Results

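The genes described here are the constitutive genes of the proteasome, the barrel-shaped protease that breaks down ubiquitin-tagged proteins in the cytosol and nucleus. They were taken by symbol: every gene whose name starts with Psma, Psmb, Psmc, Psmd, Psme or Psmg followed by a digit and that has a probe set naming it alone, without the immune-type subunits Psmb8, Psmb9 and Psmb10. The rule found 45 genes with 52 probe sets, of 18820 genes on the array. A gene with several probe sets was represented by its brightest one, judged by the mean of the 28 arrays. The name covers more than subunits. The 45 genes held 15 of the core particle, 17 of the regulatory particle, 4 alternative activators, 3 chaperones of base assembly, 4 chaperones of core assembly and 2 genes that encode no part of a proteasome. Those 2 were Psmc3ip, a meiotic recombination factor, and Psme3ip1, a protein that binds the activator Psme3. Psma8 and Psmb11, the testis and thymus forms of core subunits, were also taken by the symbol. The alpha subunit gene Psma4 and the activator gene Psme2b had no probe set that names them alone and were not analysed here.

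The data are log2 expression values of 28 livers, each from a different male C57Bl/6J mouse and run on its own array. All mice were on an intermittent diet that alternated moderate-fat food (25% of its energy from fat) with restricted weeks at 60% of control intake. Lifelong groups started it at 9 weeks. There were 6 such livers from mice aged 6 months, 7 from mice aged 12 months and 7 from mice aged 24 months, whereas a switched group (n = 8) ate the moderate-fat food until 12 months, then the intermittent diet, and was sampled at 24 months. All mice were fasted for 4 hours, dosed by gavage with the vehicle carboxymethyl cellulose and fasted for 6 more hours. Older lifelong mice had also been on the diet for longer, so age and duration of the diet cannot be told apart. For the week of the diet cycle at sampling, no value is given in the sources used here. The labels state no cell sorting, and the liver marker Alb, serum albumin, lay between 13.48 and 13.72 log2 units in the 28 livers. In whole liver, fewer cells of a type and less RNA in each cell cannot be told apart. The medians of the 28 arrays spanned 5.23 to 5.31 log2 units, and precision is limited by how many arrays each group has.

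Among the 6-month livers, those with replicate numbers 1 and 5 stood apart. Their mean deviations over 10 genes of the immunoproteasome and peptide loading were 0.08 and 0.00, against -0.39 to -0.27 in the other 4 and 0.05 to 0.20 at 24 months. Those 10 include the interferon regulatory factor Irf1. Over 11 heat shock genes the mean deviations of these livers were -0.06 and -0.02, against 0.25 to 0.44 in the other 4. They also had the lowest mean deviations of the 6 over the 45 proteasome genes, -0.07 and -0.02. Results against 6 months are therefore also given without both, a choice made after these values had been seen, which by its construction widens differences in those lists.

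The core particle is a stack of rings. Alpha subunits form the outer rings and the gate, and beta subunits form the inner rings that hold the cutting sites. The regulatory particle caps the core: the ATPases and scaffold proteins of its base unfold substrates, and its lid removes their ubiquitin. Other activators can take its place, and interferon exchanges the constitutive catalytic subunits for immune-type ones that favour peptides for antigen presentation. The liver turns over much protein and adjusts this turnover between feeding and fasting.

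The constitutive proteasome genes differed little between the groups. At 24 months against 6 months, 3 of 45 genes fell and 0 rose: Psme3, a nuclear activator, fell by 0.34 on the log2 scale, Psmd12, a lid subunit, fell by 0.27, and Psmb1, a structural beta subunit, fell by 0.22 (limma, Benjamini-Hochberg over all probe sets). In that comparison 6.23% of all genes passed in either direction, 3.22% lower and 3.01% higher, so that a share of 6.67% of the 45 lay near the background. At 12 against 6 months, at 24 against 12 months and between switched and lifelong livers, 0 of 45 genes passed in limma, and 2, 11 and 3 of the 45 had an unadjusted p under 0.05. Over all genes 0.829%, 0.0266% and 0.0266% passed in these comparisons, and 15.1%, 12.3% and 7.87% had an unadjusted p under 0.05. At 24 against 6 months 9 of the 45 had such a p, against 22.2% of all genes. Without both 6-month livers that stood apart, 4 of 45 genes fell at 24 against 6 months (Psme3, Psmd4, Psmd12 and Psma6, with 9.06% of all genes passing) and 2 fell at 12 against 6 months (Psmd4 and Psme3, with 3.91% of all genes passing). Psmb1 was not among them. For each of the genes that fell in these fits, the livers left out were the 2 lowest at 6 months. Leaving them out therefore widens these falls by construction, and the added calls are no separate support. The comparisons share groups: the 6-month livers serve both comparisons with 6 months, and the 24-month lifelong livers serve 3 of the 4.

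The size of the differences was bounded. The 95% interval of the difference lay within 1.5-fold in either direction for 45 of 45 genes in each of the 4 comparisons. For all genes this share was 93.4% at 12 against 6 months, 90.8% at 24 against 6, 94.1% at 24 against 12 and 96.2% for switched against lifelong livers. Among the 4705 brightest genes, where 34 of the 45 lay, the shares were 90.9%, 88.9%, 94.8% and 95.5%. The stricter bound of 1.2-fold held the intervals of 36, 29, 29 and 37 of the 45 in the same order. For all genes these shares were 48.4%, 44.4%, 54.0% and 60.6%, and for the 4705 brightest 52.0%, 45.4%, 62.6% and 67.0%, so that at 24 against 12 months the 45 genes, at 64.4%, lay near the bright genes. The median SD within groups was 0.12 for the 45 genes, 0.16 for all genes and 0.13 for the 4705 brightest.

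Most of the small differences at 24 months lay below 0, which was counted and not tested, since genes that vary together are no replicates. Against 6 months the median difference of the 45 was -0.07, with 37 below 0 (82.2%, against 50.5% of all genes, whose median rounds to 0.00). Against 12 months it was also -0.07, with 37 below 0 (82.2%, against 55.3% of all genes). The lifelong 24-month liver with replicate number 5 had the lowest mean deviation over the 45 genes, -0.16, whereas the other 24-month lifelong livers reached up to 0.03. Without it the median difference was -0.06 against 6 months and -0.04 against 12 months. Mean deviations ran from -0.07 to 0.13 at 6 months, from -0.04 to 0.09 at 12 months and from -0.07 to 0.08 in the switched livers, so that the 4 groups overlapped. In the switched against the lifelong livers the median was 0.04, with 13 of 45 below 0 (51.1% of all genes), and at 12 against 6 months it was 0.00, with 22 below 0 (47.7% of all genes).

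**Figure D1:**
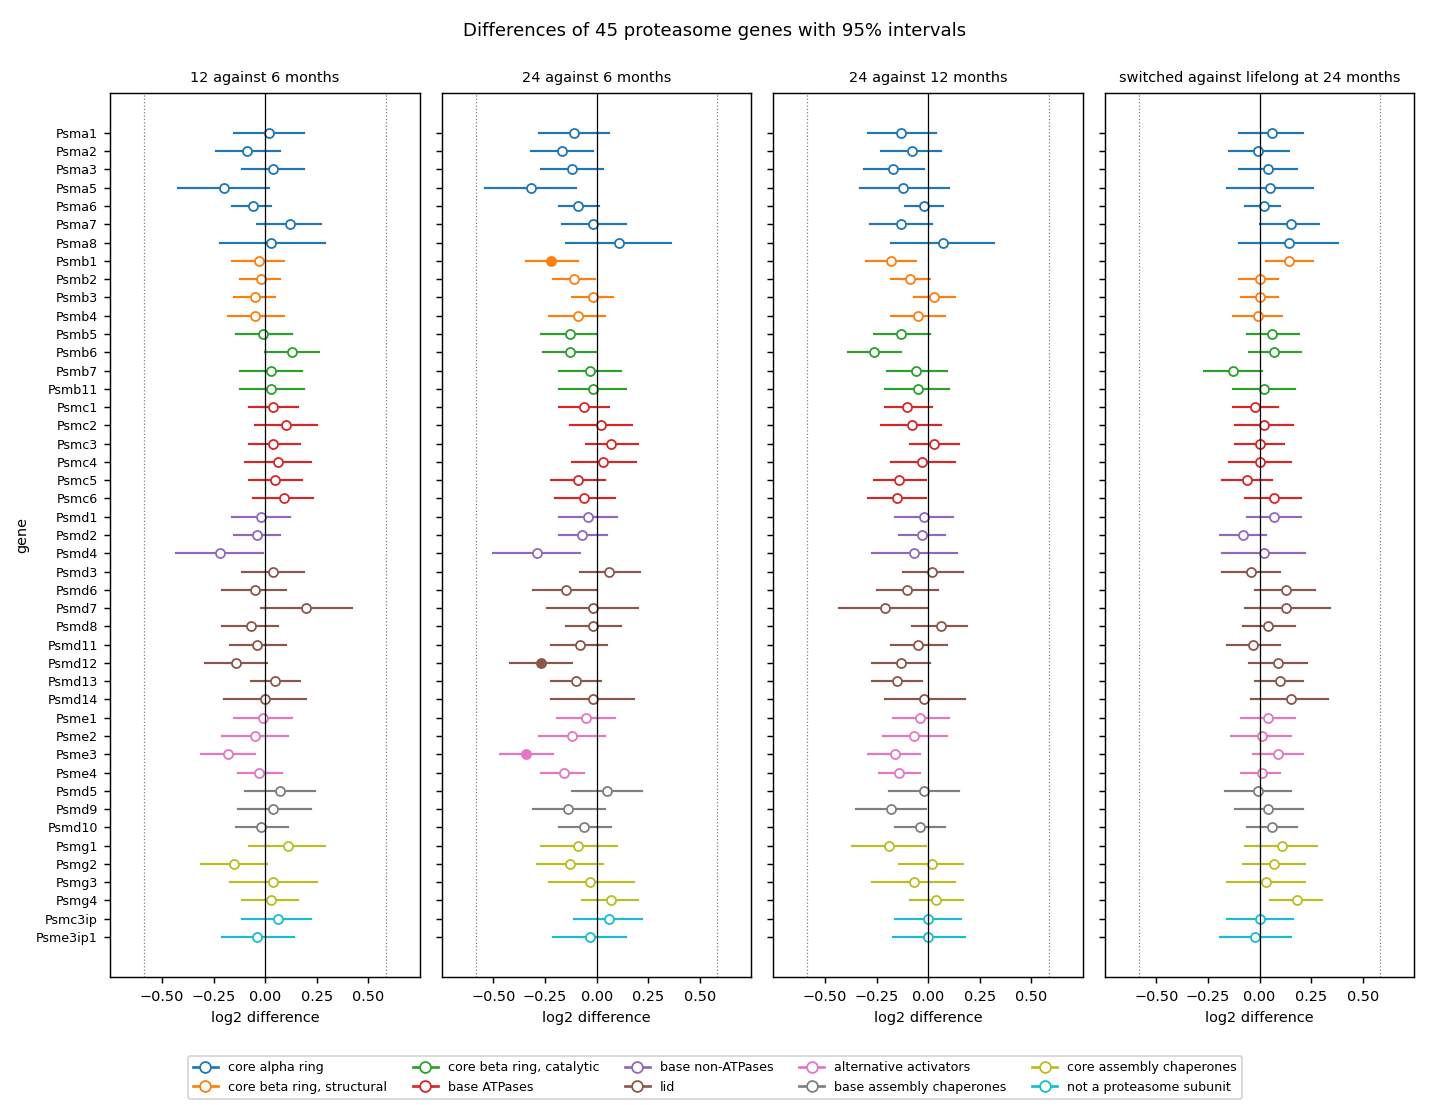
Fitted log2 difference (x axis) of each of the 45 genes (y axis) with its 95% interval in the 4 comparisons, coloured by role, where filled points passed limma at an adjusted p of 0.05 and dotted lines mark a 1.5-fold difference. Filled points appear only for Psmb1, Psmd12 and Psme3 at 24 against 6 months, and all intervals lie inside the dotted lines.

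The alpha ring, which forms the gate of the core, had 0 of 7 genes passing in each comparison. At 24 against 6 months 6 of the 7 lay below 0, with a median of -0.11. The lowest was Psma5, at -0.32 (SE 0.11, adjusted p = 0.0881). Its level ran from 8.49 to 8.98 with a median of 8.64 at 6 months, from 8.19 to 8.76 with a median of 8.54 at 12 months, from 8.10 to 8.72 with a median of 8.28 at 24 months, and from 8.14 to 8.58 with a median of 8.45 in the switched livers. Of the 7 livers at 24 months 5 lay under the 6-month range, and the others, at 8.54 and 8.72, lay inside it. A second Psma5 probe set differed by -0.27 and passed (adjusted p = 0.0362), so that the call for this gene depended on the probe set. It also passed as the mean of both (-0.30) and without the lifelong 24-month liver with replicate number 2 (-0.38). Psma2 differed by -0.17 (adjusted p = 0.197) and Psma6 by -0.09 (adjusted p = 0.309) at 24 against 6 months. Psma8 was dim (percentile 41.6 of all probe sets by mean level) and had the highest value of the ring, 0.11.

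The structural beta subunits Psmb1, Psmb2, Psmb3 and Psmb4 build the inner rings without cutting, and all of their differences at 24 against 6 months lay below 0, between -0.22 and -0.02. Psmb1 lies at chr17:15475721-15498276 of GRCm38.p6. Its level ran from 9.17 to 9.36 with a median of 9.24 at 6 months, from 9.05 to 9.29 with a median of 9.21 at 12 months, from 8.75 to 9.21 with a median of 9.11 at 24 months, and from 9.04 to 9.32 with a median of 9.16 in the switched livers. Of the 7 livers at 24 months, 6 lay below every 6-month liver and 1 lay inside the 6-month range. The fall was 1.16-fold (SE 0.06, 95% interval -0.34 to -0.09, limma adjusted p = 0.0335), with -0.26, -0.09 and -0.19 within the array-name prefixes G150, G151 and G152. Psmb1 no longer passed when any of 8 of the 13 livers of the comparison was left out (replicate numbers 1, 5 and 6 at 24 months and 1, 2, 3, 4 and 6 at 6 months), with differences from -0.24 to -0.17 over the 13. A second, dimmer probe set differed by -0.10 (adjusted p = 0.409), and as the mean of both probe sets Psmb1 did not pass (-0.16). Nor did it pass with no prefix term (-0.20), in a fit of only the 2 groups compared (-0.22), with the replicate number as a block (-0.23) or without both 6-month livers that stood apart (-0.21). In the switched livers Psmb1 differed by 0.14 from the lifelong ones (SE 0.05, adjusted p = 0.531). Psmb2 differed by -0.11 (adjusted p = 0.185) at 24 against 6 months.

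The catalytic beta subunits carry the cutting sites: Psmb5 the chymotrypsin-like, Psmb6 the caspase-like and Psmb7 the trypsin-like activity. None of them passed in limma in the 4 comparisons. The smallest p was that of Psmb6 at 24 against 12 months, where it differed by -0.26 (SE 0.06, adjusted p = 0.11). Its level ran from 9.64 to 9.82 with a median of 9.71 at 6 months, from 9.67 to 9.98 with a median of 9.87 at 12 months, from 9.40 to 9.76 with a median of 9.61 at 24 months, and from 9.43 to 9.93 with a median of 9.65 in the switched livers. The 12-month livers were the highest, and the 24-month livers overlapped them. Against 6 months Psmb6 differed by 0.13 at 12 months and by -0.13 at 24 months.

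Psmb5 ran from 10.94 to 11.23 with a median of 11.15 at 6 months and from 10.84 to 11.13 with a median of 10.98 at 24 months, a difference of -0.13 (SE 0.07, adjusted p = 0.275). Its groups overlapped over most of their range. Psmb7 differed by -0.03 at 24 against 6 months, and by -0.13 (SE 0.07, adjusted p = 0.692) in switched against lifelong livers, where the lowest switched liver lay at 8.94 and the lowest lifelong one at 9.30. Psmb11, the thymus form, was dim (percentile 38.6) and differed by -0.02 at 24 against 6 months.

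Each catalytic subunit has an immune-type partner that can take its place in a new core: Psmb8 for Psmb5, Psmb9 for Psmb6 and Psmb10 for Psmb7. The log2 difference between partner and subunit within an array was compared between groups, which shows unequal change and not the ratio of their amounts. For Psmb9 minus Psmb6 it ran from -2.45 to -1.51 at 6 months and from -1.65 to -0.91 at 24 months, and 6 of 7 livers at 24 months lay above every 6-month liver. The means were -2.10 ± 0.37 (SD, n = 6) and -1.32 ± 0.28 (SD, n = 7), so the immune-type partner was higher relative to the constitutive subunit at 24 months by 0.78, or 1.71-fold. Of 12 two-sided exact permutation tests this was the only one that passed (exact p = 0.00117, Benjamini-Hochberg adjusted p = 0.014). The call was lost without any 1 of the 24-month livers with replicate numbers 1 to 6, where the difference was 0.71 to 0.81. Each such test compares 6 livers of each age, and the 24-month liver with replicate number 7, at -1.65, overlaps the 6-month range. With that overlap too few assignments exist for a lone pair to pass after adjustment. The losses therefore do not show that the result rests on single livers. Within prefix G150 alone the difference was 0.66, but 4 livers of each age leave too few assignments for a lone pair to pass after adjustment. The 6-month livers with replicate numbers 1 and 5 had the highest values of their group, -1.51 and -1.80, against -2.45 to -2.18 in the other 4, and without both the difference was 1.00. Taken singly, Psmb9 rose by 0.67 at 24 against 6 months (limma adjusted p = 0.0178), whereas Psmb6 differed by -0.13. Psmb9 no longer passed without the 6-month livers with replicate number 4 (0.57) or 6 (0.64). It also did not pass in a fit of only the 2 groups compared, in prefix G150 alone or in G151 and G152 alone.

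The other pairs did not pass with all livers. Psmb8 minus Psmb5 was higher by 0.43 at 24 than at 6 months (exact p = 0.0396, adjusted p = 0.166), and Psmb10 minus Psmb7 by 0.21 (exact p = 0.15, adjusted p = 0.318). Both passed without the 6-month livers that stood apart, at 0.66 and 0.40, as did Psmb8 minus Psmb5 at 12 against 6 months, at 0.50. Those livers were chosen on the list of immune-type genes and had the highest 6-month values of each pair. Leaving them out therefore widens these differences by construction, and the passes are no separate support. At 24 against 12 months the values were 0.46, 0.16 and 0.21 for the Psmb9, Psmb8 and Psmb10 pairs (adjusted exact p of 0.166, 0.333 and 0.192). At 12 against 6 months they were 0.32, 0.27 and 0.01 (adjusted exact p of 0.332, 0.318 and 0.976). Between switched and lifelong livers they were -0.04, -0.11 and -0.07 (adjusted exact p of 0.833, 0.46 and 0.46), smaller than the SD within either group.

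**Figure D2:**
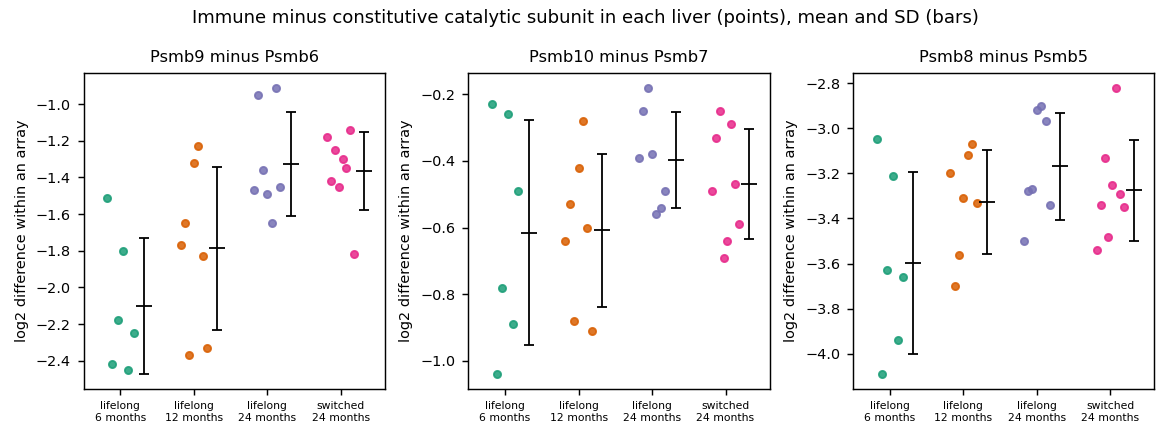
Log2 difference within an array (y axis) between an immune-type catalytic subunit and the constitutive subunit it replaces, for each liver (points) with mean and SD (bars) in the 4 groups. For Psmb9 minus Psmb6 the 24-month lifelong mean of -1.32 lies above the 6-month mean of -2.10, and the other pairs overlap more.

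Markers of immune cells differed between the same ages. Of 9 measured markers of B and plasma cells 6 rose at 24 against 6 months, and their mean deviation ran from -0.52 to -0.22 at 6 months and from -0.20 to 0.77 at 24 months. Of 10 markers of Kupffer cells and macrophages 2 rose, with ranges of -0.42 to 0.13 and -0.49 to 1.08. Of 10 markers of T and NK cells 0 passed, with ranges of -0.20 to 0.09 and -0.29 to 0.30. Of 8 hepatocyte markers 1 fell, with ranges of 0.03 to 0.16 at 6 months and -0.14 to 0.10 at 24 months. The endothelial (8 genes), stellate (8 genes) and cholangiocyte (5 genes) markers had 0 calls. Immune-type subunits are abundant in immune cells, and the part of these cells in the Psmb9 result was not tested. Nor was the part of hepatocyte content in the falls of Psme3, Psmd12 and Psmb1.

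In the base of the regulatory particle, the 6 ATPases that unfold and feed substrates had 0 calls in any comparison and 0 with an unadjusted p under 0.05 at 24 against 6 months. Their differences there lay between -0.09 (Psmc5, adjusted p = 0.478) and 0.07 (Psmc3, adjusted p = 0.568), with a median of -0.02. At 12 against 6 months all 6 lay above 0, between 0.04 and 0.10, and at 24 against 12 months 5 lay below 0, with Psmc6 at -0.15 (adjusted p = 0.426) and Psmc5 at -0.14 (adjusted p = 0.383). Psmc5 ran from 7.15 to 7.50 with a median of 7.27 at 6 months, from 7.22 to 7.45 with a median of 7.35 at 12 months and from 7.06 to 7.26 with a median of 7.22 at 24 months. The 12- and 24-month livers overlapped only at the lower edge of the 12-month range.

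The other base subunits are Psmd1 and Psmd2, large scaffold proteins, and Psmd4, a ubiquitin receptor. Psmd4 differed by -0.29 (SE 0.10, adjusted p = 0.101) at 24 against 6 months and by -0.22 (SE 0.10, adjusted p = 0.354) at 12 against 6 months. It ran from 8.30 to 9.09 with a median of 8.77 at 6 months, from 8.30 to 8.76 with a median of 8.54 at 12 months, from 8.37 to 8.61 with a median of 8.45 at 24 months, and from 8.31 to 8.63 with a median of 8.48 in the switched livers. The 6-month livers were the most spread, with an SD of 0.35 against 0.08 at 24 months, and 1 of them was as low as any older liver. Psmd4 passed without that liver, replicate number 1 at 6 months. Psmd2 differed by -0.07 (adjusted p = 0.554) and Psmd1 by -0.04 at 24 against 6 months.

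The lid removes ubiquitin through the metalloprotease Psmd14, and its other subunits hold the particle together. Psmd12 was the only lid gene of 8 that passed, at 24 against 6 months, and 7 of the 8 lay below 0 there. It lies at chr11:107479528-107498036 of GRCm38.p6. Its level ran from 9.31 to 9.70 with a median of 9.49 at 6 months, from 9.22 to 9.49 with a median of 9.34 at 12 months, from 9.06 to 9.37 with a median of 9.24 at 24 months, and from 9.15 to 9.59 with a median of 9.28 in the switched livers. Of the 7 livers at 24 months 5 lay below every 6-month liver. The fall was 1.21-fold (SE 0.07, 95% interval -0.42 to -0.12, limma adjusted p = 0.0281), with -0.23, -0.36 and -0.27 within prefixes G150, G151 and G152. Psmd12 no longer passed when any of 7 of the 13 livers was left out (replicate numbers 1, 3 and 5 at 24 months and 2, 3, 4 and 6 at 6 months), with differences from -0.30 to -0.23 over the 13. It also did not pass in a fit of only the 2 groups compared (-0.26) or with the replicate number as a block (-0.27).

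The other lid genes had smaller differences. Psmd6 differed by -0.15 (adjusted p = 0.276) at 24 against 6 months. Psmd7, which pairs with Psmd14, differed by 0.20 (adjusted p = 0.457) at 12 against 6 months and by -0.21 (adjusted p = 0.445) at 24 against 12 months, and Psmd13 by -0.15 (adjusted p = 0.313) at 24 against 12 months. Psmd14 had a median of 9.81 at 6 months, 9.76 at 12 months, 9.82 at 24 months and 9.86 in the switched livers. It differed by -0.02 at 24 against 6 months and by 0.15 (SE 0.09, adjusted p = 0.767) in switched against lifelong livers.

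The alternative activators open the core without the regulatory particle. Psme3 forms the nuclear ring activator PA28 gamma, which acts without ubiquitin, and it lies at chr11:101316213-101323537 of GRCm38.p6. Its level ran from 9.78 to 10.12 with a median of 10.02 at 6 months, from 9.73 to 9.94 with a median of 9.80 at 12 months, from 9.59 to 9.74 with a median of 9.63 at 24 months, and from 9.58 to 10.01 with a median of 9.69 in the switched livers. All 7 livers at 24 months lay below all 6 livers at 6 months, and Psme3 was the only one of the 45 genes whose groups did not overlap in this comparison. Of all genes 2.14% had no overlap there. No overlap was seen for 0 of the 45 genes at 12 against 6 months (0.994% of all genes), at 24 against 12 months (0.287%) or between the switched and lifelong livers (0.0478%).

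The fall of Psme3 at 24 against 6 months was 1.27-fold (SE 0.06, 95% interval -0.47 to -0.21, limma adjusted p = 0.00319), with -0.26, -0.49 and -0.43 within prefixes G150, G151 and G152. It passed without each of the 13 livers in turn, with differences from -0.38 to -0.31. It did not pass in fits of prefix G150 alone or of G151 and G152 alone, which hold fewer livers. At 12 against 6 months Psme3 differed by -0.18 (SE 0.06, adjusted p = 0.188), at 24 against 12 months by -0.16 (SE 0.06, adjusted p = 0.304) and between switched and lifelong livers by 0.09 (SE 0.06, 95% interval -0.03 to 0.21).

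Psme4, which encodes the large nuclear activator PA200, ran from 9.89 to 10.08 with a median of 9.95 at 6 months, from 9.83 to 10.03 with a median of 9.92 at 12 months, from 9.72 to 9.93 with a median of 9.80 at 24 months, and from 9.69 to 9.88 with a median of 9.83 in the switched livers. Of the 7 livers at 24 months 6 lay below the 6-month range. The difference was -0.16 (SE 0.05, adjusted p = 0.0556), and it passed without the lifelong 24-month liver with replicate number 7 (-0.19). It also passed in 6 other alternatives. Psme1 and Psme2 form the PA28 activator that interferon induces, and they differed by -0.05 (adjusted p = 0.764) and -0.12 (adjusted p = 0.427) at 24 against 6 months. Neither passed in any comparison.

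**Figure D3:**
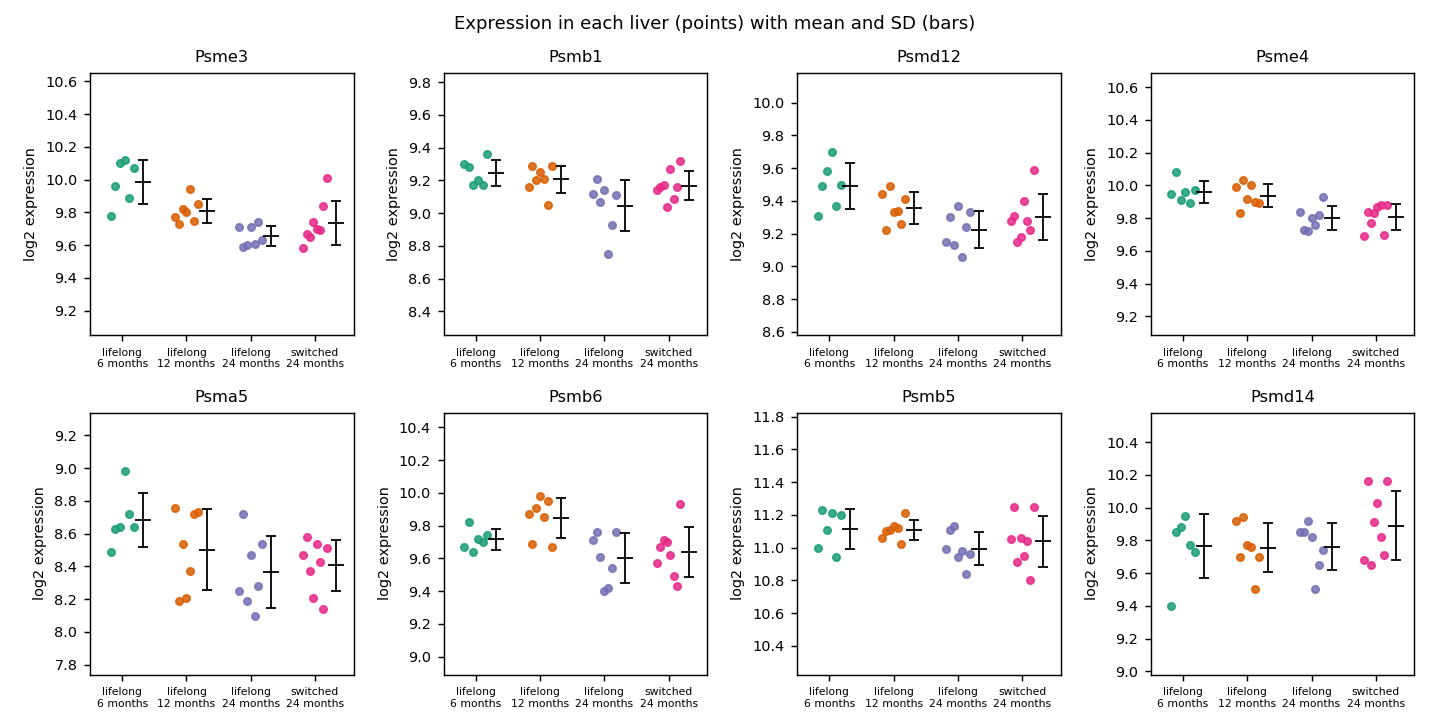
Log2 expression (y axis) of 8 proteasome genes in each of the 28 livers (points) with group mean and SD (bars), all panels spanning the same width in log2 units. The 24-month lifelong livers of Psme3 lie between 9.59 and 9.74, below the 6-month livers at 9.78 to 10.12, whereas Psmb5 and Psmd14 overlap in all groups.

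The chaperones that assemble the particle had 0 calls. Of the core chaperones, which guide the alpha subunits into rings, Psmg4 had the smallest p of all 45 genes in switched against lifelong livers. It ran from 6.60 to 7.11 with a median of 6.90 at 24 months and from 6.72 to 7.22 with a median of 7.00 in the switched livers, a difference of 0.18 (SE 0.06, adjusted p = 0.468). The groups overlapped over most of their range. Psmg1 differed by -0.19 (adjusted p = 0.414) at 24 against 12 months and Psmg2 by -0.15 (adjusted p = 0.428) at 12 against 6 months, and Psmg3 was dim (percentile 45.8). Of the base chaperones Psmd9 differed by -0.18 (adjusted p = 0.421) at 24 against 12 months, and Psmd5 and Psmd10 lay between -0.06 and 0.07 in the 4 comparisons. Psmc3ip and Psme3ip1, which are not subunits, lay between -0.04 and 0.06.

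Genes that work with the proteasome were counted from lists. Among 14 measured partners outside the symbol rule 3 fell at 24 against 6 months and 0 rose, with a median of -0.09. They were the core maturation factor Pomp (-0.21, adjusted p = 0.0348), the thioredoxin-like protein Txnl1, which binds the regulatory particle (-0.27, adjusted p = 0.00945), and Ubqln4, which carries ubiquitinated proteins to the proteasome (-0.37, adjusted p = 0.00932). Txnl1 ran from 8.68 to 8.93 at 6 months and from 8.43 to 8.68 at 24 months, so that the ranges met at one edge. Txnl1 and Ubqln4 passed without each liver in turn. Pomp did not pass without the 24-month livers with replicate numbers 3, 5 or 6, each left out singly. Nor did it pass without the 6-month livers with replicate numbers 2, 3, 5 or 6. Its differences ran from -0.23 to -0.18 over the 13 livers left out. Pomp, Txnl1 and Ubqln4 did not pass in a fit of only the 2 groups compared. They also did not pass in prefix G150 alone or in G151 and G152 alone, which hold fewer livers.

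Of the 7 measured genes of NFE2L1 control, the pathway that raises proteasome genes when proteasome activity is short, 0 passed in any comparison with all livers. An unadjusted p under 0.05 was seen for 2 of the 7 at 12 against 6 months, for 0 at 24 against 6, for 2 at 24 against 12 and for 0 in switched against lifelong livers. Without both 6-month livers that stood apart 1 fell at 12 against 6 months. Nfe2l1 itself ran from 9.42 to 10.07 with a median of 9.87 at 6 months, from 9.29 to 9.90 with a median of 9.54 at 12 months, and from 9.67 to 9.91 with a median of 9.71 at 24 months. It differed by -0.25 (SE 0.10, adjusted p = 0.253) at 12 against 6 months, by -0.05 (SE 0.10, adjusted p = 0.831) at 24 against 6 months and by 0.19 (SE 0.09, adjusted p = 0.445) at 24 against 12 months. The 12-month livers had the lowest median, and the ranges overlapped. Of 6 genes of ubiquitin and its activation only Uba6 was measured, at -0.22 at 24 against 6 months, and it did not pass. Of 11 heat shock genes, which hold unfolded proteins, 3 fell and 0 rose at 24 against 6 months, with a median of -0.22. The largest was Hsph1, a chaperone partner of Hsp70, which fell by 0.92 (SE 0.19, adjusted p = 0.00686) from a range of 7.83 to 9.06 to one of 6.97 to 7.96. Hsph1 passed without each liver in turn, but not in a fit of only the 2 groups compared, in prefix G150 alone or in G151 and G152 alone.

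In lists of the immune side the calls were higher at 24 than at 6 months. Of 10 genes of the immunoproteasome and peptide loading 5 rose and 0 fell, with a median of 0.31, and of 12 interferon response genes 3 rose and 0 fell, with a median of 0.33. The first list also holds the interferon regulatory factor Irf1, which was among the 5. Rtp4, an interferon-induced gene, rose by 0.65 (adjusted p = 0.0149) and passed without each liver in turn. It did not pass in a fit of only the 2 groups compared, in prefix G150 alone or in G151 and G152 alone. Other calls depended more on single livers. In the first list Psmb9 kept its call in 11 of the 13 fits without a single liver, Tap1 and Tapbp in 9 each and Irf1 in 5. In the second, Ifit3 kept its call in 7 and Ifit1 in 4. In each of the other 3 comparisons 0 genes of these lists passed with all livers. Without both 6-month livers that stood apart 7 of the 10 and 4 of the 12 rose at 24 against 6 months, and 4 and 2 rose at 12 against 6 months. For the heat shock genes 6 then fell at 24 against 6 months and 3 at 12 against 6 months. The choice of these livers widens the differences of the immunoproteasome and heat shock lists by construction.

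Levels of regulatory particle genes varied together between livers of the same group. After group and array-name prefix had been removed, Pearson's r over the 28 livers had a median of 0.39 over the 136 pairs of the 17 regulatory genes, and 32.4% of pairs lay over 0.5. For the 78 pairs of 13 core genes, Psma8 and Psmb11 left out, the median was 0.31 and 15.4% lay over 0.5. Pairs between core and regulatory genes had a median of 0.27, and all 990 pairs of the 45 genes had 0.17. Pairs of other genes among the 4705 brightest had a median of 0.02, with 4.27% over 0.5. These values are descriptions: the pairs share livers and arrays, so shared RNA quality or a shared array effect enters them as well, and neither was tested.

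The closest pair was Psmd1, a base scaffold, and Psmd14, the lid deubiquitinase, with an r of 0.83 (Spearman's rho 0.83, and r of 0.77 without the 2 livers farthest from the median of Psmd1). Psmd11 and Psmd12, a pair of lid scaffold subunits, followed with 0.77 (rho 0.77, 0.73 without the 2 farthest). In the core the closest pair was Psma6 and Psmb3, at 0.66 (rho 0.61, 0.65 without the 2 farthest). Psmd1 had an r over 0.5 with 16 of the other 44 genes, Psmd14 with 14, and Psmd3 and the core gene Psma6 with 12 each. Psmd8, Psmd10, Psme2, Psmg1, Psmg2, Psmg4 and Psmb11 had an r over 0.5 with 0 of the other genes. The interferon-induced activator gene Psme1 had a median r of -0.13 with the other members, and its lowest was with the catalytic subunit gene Psmb7, at -0.77 (rho -0.70, -0.59 without the 2 farthest), a pair singled out after its value had been seen.

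Without the 2 livers with the most extreme mean deviation the regulatory median was 0.33, with 24.3% of pairs over 0.5, and within the 18 livers of prefix G150 it was 0.48, with 45.6%. Other lists also varied together: the median r was 0.40 for the immunoproteasome and peptide loading list, 0.36 for heat shock and 0.48 for interferon response, but 0.15 for the partners outside the rule. Nfe2l1 had a median r of 0.32 with the 17 regulatory genes.

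**Figure D4:**
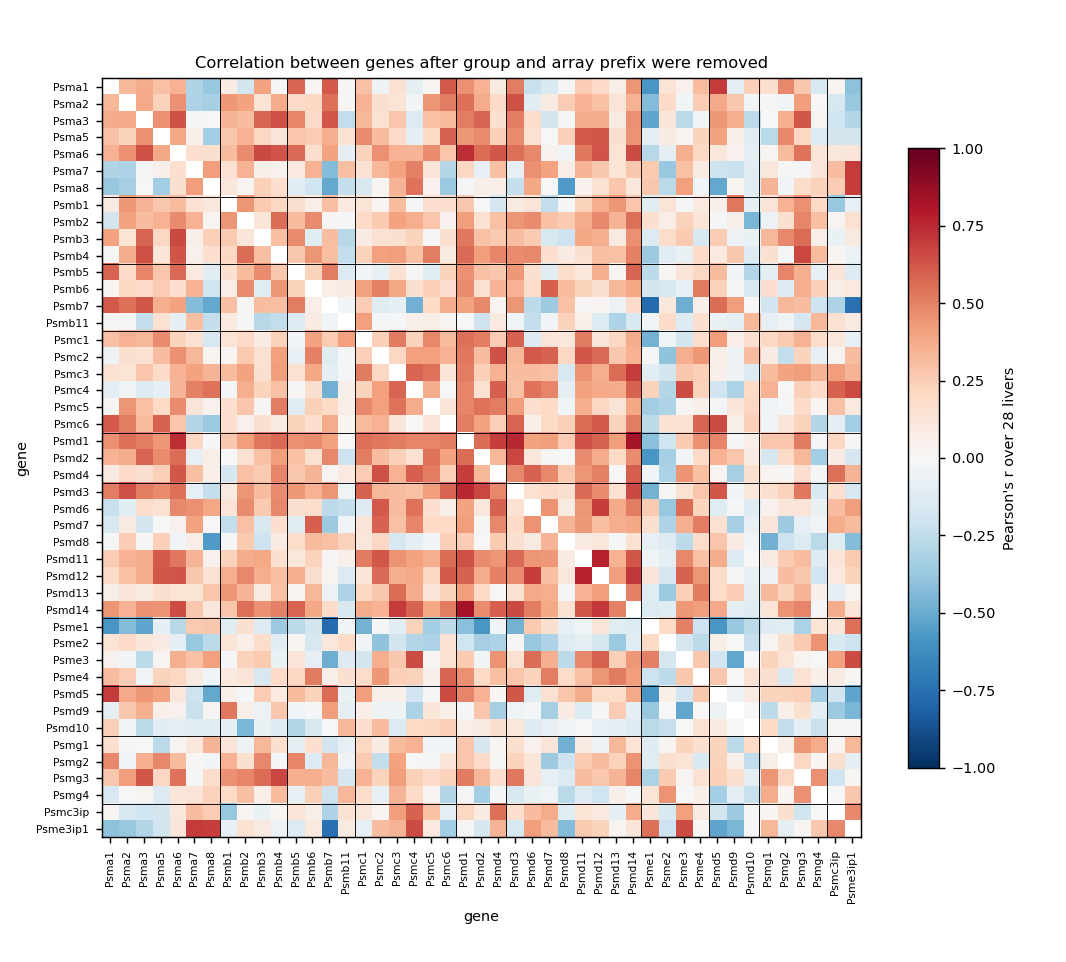
Pearson's r over the 28 livers between each pair of the 45 genes (both axes, ordered and ruled by role) after group and array-name prefix were removed, red for positive and blue for negative. The block of regulatory particle genes from Psmc1 to Psmd14 is mostly red, with a median of 0.39, and the row of Psme1 is mostly blue.

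The promoters of the genes were read from RefSeq (GRCm38.p6) as the 250 bases before each start, and 37 of the 45 genes had 41 such promoters there. They were searched on both strands for 4 sets of letters: TGACNNNGC, part of the element that NFE2L1 binds with MAF proteins, CCAAT, a box of the factor NF-Y, CCGGAAG, a site of ETS factors, and GAANNTTC, a pair of heat shock units that reads the same on both strands. The 4 promoters shown are those of the closely varying lid pair Psmd11 and Psmd12, of the base scaffold Psmd2, and of Psme3, the gene with the largest fall. They do not stand for the rest: 14 of the 41 promoters held the ETS letters, among them all 4 shown here. Each reads 5′ to 3′ along the gene up to the base before the start, and capitals mark every match of the 4 searches on either strand.
Psmd11 promoter, chr11:80428365-80428614, plus strand: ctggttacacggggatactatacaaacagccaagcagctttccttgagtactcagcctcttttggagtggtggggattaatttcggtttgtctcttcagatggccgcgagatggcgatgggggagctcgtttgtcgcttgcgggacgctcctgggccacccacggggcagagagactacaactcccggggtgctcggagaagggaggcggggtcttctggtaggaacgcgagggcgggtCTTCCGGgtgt
Psmd12 promoter, chr11:107479278-107479527, plus strand: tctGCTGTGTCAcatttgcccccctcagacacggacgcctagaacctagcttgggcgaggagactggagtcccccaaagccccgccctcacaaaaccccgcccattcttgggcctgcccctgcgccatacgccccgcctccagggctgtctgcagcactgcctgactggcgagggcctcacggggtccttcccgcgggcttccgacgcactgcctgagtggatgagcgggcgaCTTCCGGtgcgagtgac
Psmd2 promoter, chr16:20651402-20651651, plus strand: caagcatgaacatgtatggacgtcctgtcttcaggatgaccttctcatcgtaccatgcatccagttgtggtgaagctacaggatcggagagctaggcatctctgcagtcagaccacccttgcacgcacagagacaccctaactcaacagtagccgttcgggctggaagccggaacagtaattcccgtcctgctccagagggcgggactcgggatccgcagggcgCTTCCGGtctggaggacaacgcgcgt
Psme3 promoter, chr11:101315963-101316212, plus strand: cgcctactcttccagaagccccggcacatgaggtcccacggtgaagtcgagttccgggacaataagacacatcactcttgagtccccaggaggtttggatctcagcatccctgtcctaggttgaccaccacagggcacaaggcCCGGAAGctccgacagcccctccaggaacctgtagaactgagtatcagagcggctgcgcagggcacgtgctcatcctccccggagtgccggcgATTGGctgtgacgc

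The letters of the ETS site stood in 9 of the 15 regulatory particle promoters (60.0%), which belong to 8 of 14 genes: Psmc1, Psmc2, Psmc6, Psmd2, Psmd4, Psmd6, Psmd11 and Psmd12. Among all 32851 RefSeq promoters searched the share was 6.91%, and among those with at least 55% G and C it was 12.1%, against 5 of 8 such regulatory promoters. Psmd1 and Psmd14, the pair with the highest r, do not hold these letters in this window. Among the 41 promoters of all the genes 14 held them (34.1%), also those of Psme3, Psme4, Psmg1, Psmc3ip and Psma6. For the core particle 10 of 13 genes had a promoter entry, so that no share over the particle is given. Of their 11 promoters 1 held the ETS letters, that of Psma6, and 6 held the CCAAT letters. The median content of G and C was 57.6% in the 41 promoters and 52.4% in all.

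The other letters were counted in the same way. The NFE2L1 and MAF letters were in 5 of 41 (12.2%, against 10.2% of all), those of Psmb5, Psmb6, Psmc6, Psmd12 and Psmd9. The CCAAT letters were in 15 of 41 (36.6%, against 33.8%) and in 4 of the 15 regulatory promoters (26.7%), and the heat shock letters in 1 of 41, that of Psmb5 (2.44%, against 6.69%). A match is a description of the letters and not a shown binding site.

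**Figure D5:**
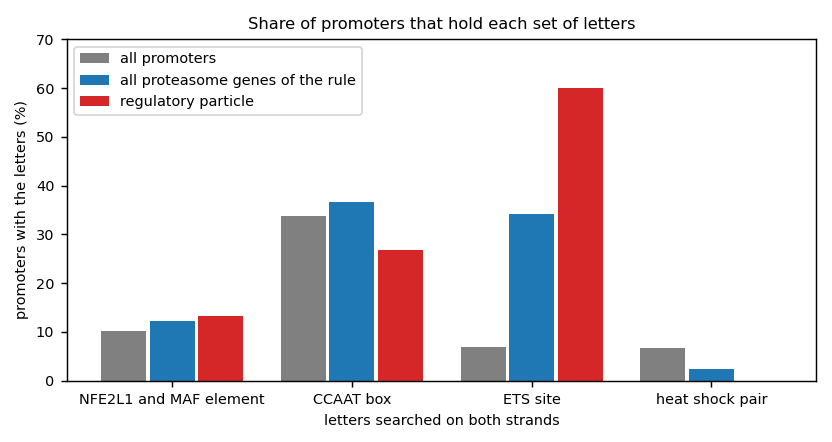
Share of RefSeq promoters (y axis, percent) that hold each of the 4 sets of letters (x axis) among all 32851 promoters, the 41 promoters of the proteasome genes and the 15 of regulatory particle genes. The ETS letters stand in 60.0% of regulatory promoters and 6.91% of all, and the other bars differ less.

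The 45 genes lie on 15 chromosomes of GRCm38.p6, and 9 of them on chromosome 11, among them Psme3, Psme4, Psmd11 and Psmd12. Psme1 and Psme2 lie close together on chromosome 14 (chr14:55578494-55581527 and chr14:55587440-55591101), as do Psmb5 and Psmb11 (chr14:54614120-54617995 and chr14:54625310-54629556). After group and prefix had been removed, r over the 28 livers was 0.20 between Psme1 and Psme2 and -0.14 between Psmb5 and Psmb11, so that neither neighbouring pair was among the closely varying ones.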

How the data were processed

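Liver RNA with an integrity number above 8.0 was hybridised to single-colour arrays, 1 for each of 28 mice. Per the labels, the deposited values are log2 expression summarised by RMA by the authors. The RMA version, and whether all arrays were summarised jointly, are points not given in the sources used here. No further normalisation or detection call was applied. In the platform annotation 21218 probe sets carry 1 gene symbol, 1881 carry several and 12457 carry none.

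All 28 arrays entered 1 fit in limma 3.58.1 (R 4.3.3) with group and array-name prefix (G150, G151 or G152) as fixed terms. The prefixes held 4, 1 and 1 of the 6-month livers, 4, 2 and 1 of the 12-month ones, 4, 1 and 2 of the lifelong 24-month ones and 6, 1 and 1 of the switched ones. The tests are two-sided with Benjamini-Hochberg adjustment across the 35556 probe sets, at a threshold of 0.05. A difference is a fitted log2 difference, SE its moderated standard error, and a mean deviation the mean over a list of each gene's distance from its mean over all arrays. Python 3.11.15, pandas 2.3.3, numpy 2.4.6, scipy 1.17.1 and matplotlib 3.10.9 did the rest, and the fit was tested on simulated data. There 25.4% to 38.8% of simulated differences of 0.3 passed in the 4 comparisons, and 65.7% to 79.1% of those of 0.5. A gene that does not pass can therefore still differ by such an amount.

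The symbol rule, gene lists, letters and comparisons were chosen with earlier results of these data known. Genes were named by a rule: members that passed in a comparison, the 2 members of each role with the smallest p in each comparison, Psmb5, Psmb6, Psmb7, Psme1, Psme2, Psme4 and Psmd14 always, Psmb8, Psmb9, Psmb10 and Nfe2l1 always, and up to 4 passing genes of each related list. The text prints a selection of these, and genes named for correlation or promoters follow those values.

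The alternatives were no prefix term, each part of the prefixes alone, only the groups compared, the dimmest 30% of probe sets left out, repeated quantile normalisation, median centring, array weights, a robust fit with a mean-variance trend, a block for the replicate number, the mean of a gene's probe sets, 2 arrays with an added suffix in their name left out, each liver left out in turn and, added after the data had been seen, 1 probe set for each gene and both 6-month livers that stood apart left out.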

Additional observations from a re-analysis of the deposited data

Results flagged for a closer look

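A liver was taken as far from its group where its gap to the nearest other liver, divided by the range of the group, lay above Dixon's 95% critical value. That value is set so that chance gives such a liver in about 1 in 20 groups of normally distributed values, and here 9 of 228 combinations of gene or mean deviation and group had one. Of the proteasome genes, the base ATPase gene Psmc6 was low in the 6-month liver with replicate number 1, at 8.95 log2 units against 9.08 for the next. The core gene Psma2 and the base scaffold gene Psmd1 were low in the same liver, replicate 5 of the lifelong 24-month group, at 7.41 against 7.84 and at 9.85 against 10.07. This liver also had the lowest mean deviation over the 45 genes, -0.16. The structural beta subunit gene Psmb3 was high in replicate 2 of that group, at 12.21 against 12.04.

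In the switched group, replicate 7 was low for the base chaperone gene Psmd5, at 7.99 against 8.34, and high for the testis form Psma8, at 5.61 against 4.87. Of the related genes, the heat shock gene Dnajb4 was low in replicate 6 of the 12-month group, at 8.59 against 8.95, and Dnajb1 was high in replicate 4, at 7.64 against 7.35. The interferon response gene Ifit1 was high in replicate 5 of the 12-month group, at 8.34 against 7.22.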

How the results depend on the processing

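The number of proteasome genes passing at 24 against 6 months was 3 in the fit reported and between 0 and 4 in the alternatives. It was 1 when only the groups compared were fitted, 0 in prefix G150 alone, 0 in prefixes G151 and G152 alone, and 1 with the replicate number as a block beside the prefix. Leaving out 1 liver at a time gave 1 to 4, and it gave 1 without the 24-month livers with replicate number 1 or 5 or the 6-month livers with replicate number 2, 3, 4 or 6; Psme3 was the gene that passed in each of these 6 fits and under the block. Replicate numbers are shared by the groups, but livers of the same number were not closely alike. Of 39 same-numbered pairs 5 had an r over 0.1, and 3 livers correlated best with one of their own number. These correlations cannot show whether the numbers pair livers by design. In the other 3 comparisons the number passing was 0 in the 13 other alternatives and without each liver in turn. Without both 6-month livers that stood apart, an alternative chosen after the data had been seen, 4 passed at 24 against 6 months and 2 at 12 against 6 months. Psmb10 minus Psmb7 (0.40) and Psmb8 minus Psmb5 (0.66) at 24 against 6 months then passed too. So did Psmb8 minus Psmb5 at 12 against 6 months (0.50). The choice of the livers left out widens the differences of these genes and pairs by construction. The median difference of the 45 genes at 12 against 6 months was -0.06 in prefixes G151 and G152 alone and 0.00 in the fit reported, and the cause was not tested; leaving out single livers gave -0.02 to 0.02. For Psmb9 minus Psmb6 at 24 against 6 months the difference was 0.66 in prefix G150 alone, which did not pass. With 4 livers of each age there, too few assignments exist for a lone pair to pass after adjustment. Without single livers the difference was 0.71 to 0.90. The same difference between switched and lifelong livers ran from -0.09 to 0.03 without single livers and so took either sign. Psmb10 minus Psmb7 at 12 against 6 months was -0.04 in prefix G150 alone and -0.08 to 0.08 without single livers. The median differences of the other 3 comparisons kept their sign in all alternatives. Dim genes (Psma8, Psmb11, Psmc3ip and Psmg3) lie where array signal over background is least known, and differences of small size in them have the least support.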
